A study of Homo sapiens with 11 samples.

Results

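The receptors described here are 10 genes of the scavenger receptor and myeloid C-type lectin receptor groups: MSR1, CD36, CD163, MARCO, MRC1, CD209, CLEC4A, CLEC4E, CLEC5A and CLEC7A. They were chosen by name, as the rows of the deposited table that carry these symbols, and all 10 were found among its 594 endogenous probes. All samples came from THP-1, a widely used human monocytic leukaemia cell line. In the monocyte groups the cells were kept undifferentiated. In the macrophage groups they were differentiated with the phorbol ester PMA for 3 h and left to recover for 24 h. All cells then spent 24 h in charcoal-stripped medium, which lacks steroid hormones, before 6 h of vehicle or of 100 nM dexamethasone (Dex), a synthetic glucocorticoid. The monocyte groups given vehicle (Mono_Vehicle) or Dex (Mono_Dex) had 3 samples each. Of the macrophage groups, that given vehicle (Mac_Vehicle) had 3 and that given Dex (Mac_Dex) had 2. A further Mac_Dex sample, which clustered among vehicle samples with FKBP5 not raised, had been dropped by the authors, so every Dex response in macrophages rests on samples kept partly for responding. THP-1 is a single leukaemic line, and whether its replicates were separate cultures is not stated, so the spread between samples may be partly technical.

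Scavenger receptors bind modified lipoproteins, bacterial surfaces and dying cells and carry them into the phagocyte. MSR1, MARCO and CD36 take up oxidized or acetylated low-density lipoprotein and particles, while CD163 clears haemoglobin bound to haptoglobin and is a classical glucocorticoid-induced gene of human monocytes and macrophages. C-type lectin receptors recognise sugars or related structures: MRC1 (the mannose receptor) and CD209 (DC-SIGN) bind mannose-rich glycans, CLEC7A (dectin-1) binds fungal beta-glucan, and CLEC4E (Mincle) binds mycobacterial glycolipid. CLEC4A carries an inhibitory motif in its cytoplasmic tail, whereas CLEC5A signals through the adaptor DAP12.

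Expression was measured by NanoString nCounter hybridization, in which a colour-barcoded probe is counted for each transcript without amplification. The deposited values are a normalized linear signal per probe, given below in units. Monocyte samples totalled 372345 to 420466 units of endogenous signal and macrophage samples 742895 to 889658, and replicates of a group had correlations of 0.984 to 0.992 (Pearson r of log2 signal, across genes). The lowest endogenous value was 1 in every monocyte sample and 1.21 to 1.52 in macrophages, and negative control probes reached at most 15.6, so a level of 20 units was taken as the floor of measurement. FKBP5, the check of the treatment, ranged from 1205 to 1259 units (Mono_Vehicle), 24832 to 24990 (Mono_Dex), 407 to 623 (Mac_Vehicle) and 37306 to 38036 (Mac_Dex). Of 9 monocyte and macrophage markers in the table, 9 reached the floor in each group except Mono_Dex, where CD14 did not. All 9 T-cell markers stayed under it in every group. NCAM1 among 6 NK-cell markers exceeded it, and the dendritic cell markers CD1A and LAMP3 did not. The NK-cell list, led by NCAM1, summed to between 1435 and 1628 units per monocyte sample and between 2778 and 3626 per macrophage sample; its part in the differences between states was not tested.

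The receptors fell into 3 sets by level. CD36 and CLEC5A were above the floor in all 11 samples. MSR1, CD163, MARCO and CD209 had samples on both sides of it. For MSR1, CD163 and CD209 the crossing followed cell state or treatment, whereas MARCO also crossed it between samples of each monocyte group. The remaining 4 had no group mean at 20 units and were not tested: MRC1, CLEC4A and CLEC4E stayed under 20 units in all 11 samples, and CLEC7A did so in 10 of 11. Probes differ in efficiency, so the level of 1 receptor is not compared with that of another.

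**Figure D1:**
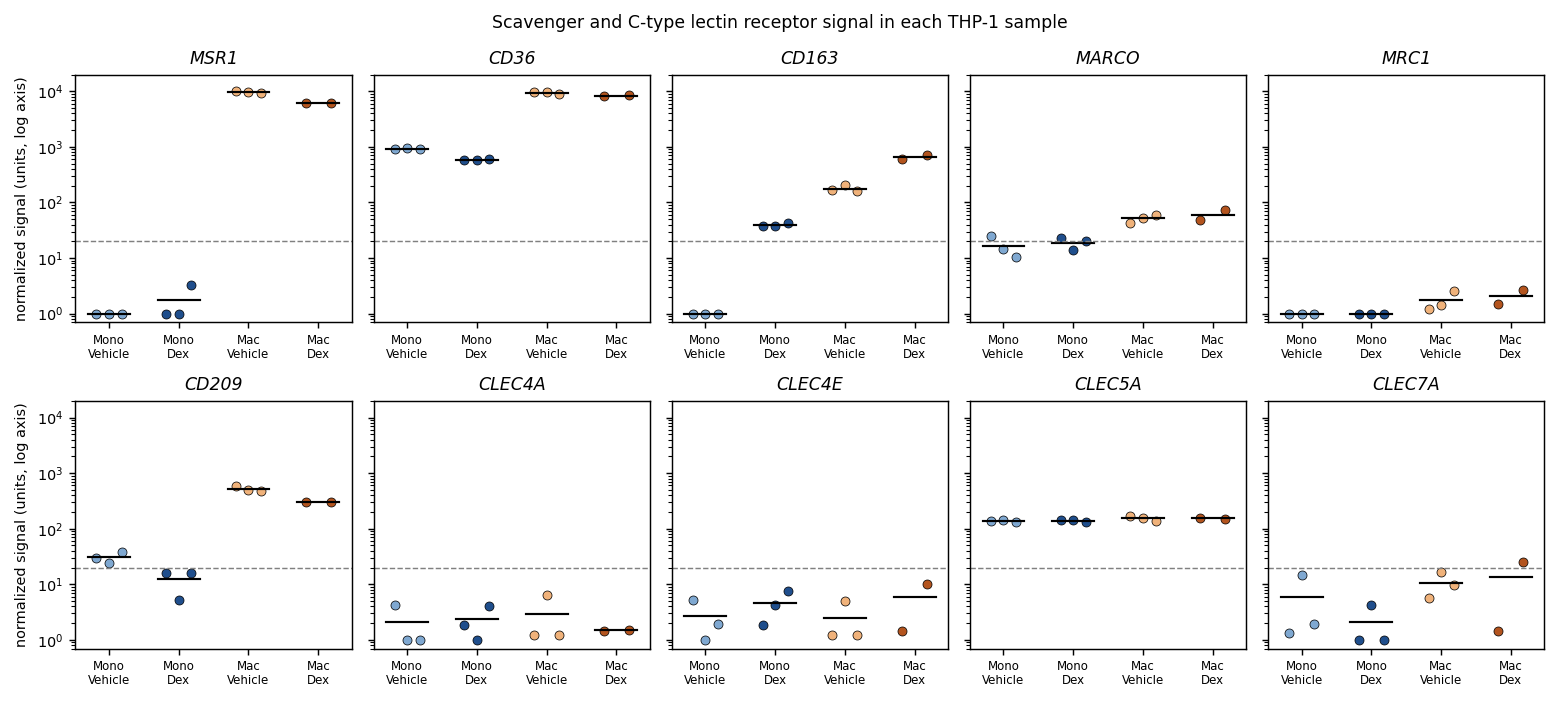
Normalized signal (units, log axis) of each of the 10 receptors in every sample, by group; points are samples, bars are group means and the dashed line is the floor of 20 units. MSR1 lies at 3.26 units or less in all monocyte samples and at 6074 or more in all macrophage samples, and CLEC5A lies between 132 and 171 units throughout.

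For the comparisons, all 379 endogenous probes whose highest group mean reached 20 units were fitted together in limma on log2(value + 1), with Benjamini-Hochberg adjustment over the 379. A gene was called at an adjusted p under 0.05 (two-sided). MSR1 and MARCO entered the fit through the macrophage groups, so a difference between states was built into their passing the filter. CD163 was under the floor in Mono_Vehicle but above it in Mono_Dex (39.3 units) as well as in macrophages. A fold is the ratio of group means. Where a group mean was under 20 units it was set to 20, and the fold is written as "at least".

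The macrophage state carried far more signal of MSR1, CD36, CD209 and CD163 than the monocyte state, and more MARCO as deposited, while CLEC5A had no direction that held across scalings. The MARCO difference was not called with quantile normalization. With vehicle, 5 of the 6 tested receptors were called higher in macrophages and none lower, where 84.7% of all tested genes were called 65.2% higher and 19.5% lower. With Dex, again 5 of 6 were higher, against 79.7% called and 61.7% higher. The vehicle groups did not overlap for 5 of the 6 (85% of all tested genes) and the Dex groups for 6 of the 6 (85.8%). These shares are near the background and say nothing particular of these receptors. The median change of all tested genes between the states was 0.72 with vehicle and 0.75 with Dex on the log2 scale, and it turned to -0.20 and -0.09 when samples were centred on their medians and to -0.29 and -0.25 with quantile normalization. With that, the share of vehicle calls that were higher in macrophages moved from 76.9% to 45.6% and 44.8%, and was 66.3% when samples were centred on housekeeping genes. With Dex it moved from 77.5% to 46.3%, 43.0% and 64.4% in the same order. In bulk samples such as these, a change in the number of expressing cells and a change in RNA per cell cannot be told apart.

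MSR1, the class A scavenger receptor of macrophages, was read in Mac_Vehicle at 10184, 9555 and 9292 units and in the 2 Mac_Dex samples at 6074 and 6145. Every Mono_Vehicle sample held the table's lowest value of 1, as did 2 of the 3 Mono_Dex samples, with the third at 3.26. The monocyte and macrophage groups were thus far apart, at least 484-fold with vehicle and at least 305-fold with Dex. MSR1 was tested because its macrophage values are high, so its call between the states adds nothing to these bounds.

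CD36, the class B scavenger receptor that takes up oxidized lipoprotein and long-chain fatty acids, was measured in all groups. Monocytes held 924, 947 and 904 units with vehicle and 586, 579.5 and 606 with Dex, and macrophages held 9671, 9842 and 8977 with vehicle and 8077 and 8613 with Dex. No group overlapped another, and the order from low to high was Mono_Dex, Mono_Vehicle, Mac_Dex and Mac_Vehicle. Macrophages exceeded monocytes 10.3-fold with vehicle (925 ± 21.5 against 9496 ± 458 units, mean ± SD, n = 3 each; log2 change 3.36, SE 0.05) and 14.1-fold with Dex (591 ± 14.0, n = 3, against 8345 ± 379, n = 2).

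CD209, a lectin best known from dendritic cells and alternatively activated macrophages, was low in monocytes, at 29.9, 24.6 and 38.8 units with vehicle and at 15.9, 5.17 and 16.1 with Dex. It reached 592, 489.5 and 469.5 units in macrophages given vehicle and 298 and 303 in those given Dex. Its 4 groups did not overlap, and macrophages exceeded monocytes 16.6-fold with vehicle (adjusted p = 2.72e-08 in limma) and at least 15.0-fold with Dex. The dendritic cell markers CD1A and LAMP3 summed to between 20.9 and 37.1 units in Mac_Vehicle and to between 3.61 and 9.01 in Mono_Vehicle, each with group means under the floor.

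CD163 held the lowest value of 1 in all Mono_Vehicle samples and lay at 37.3, 38.0 and 42.6 units in Mono_Dex. In macrophages it lay at 165, 204.0 and 162 units with vehicle and at 597 and 709.0 with Dex. The 4 groups did not overlap and their order, Mono_Vehicle, Mono_Dex, Mac_Vehicle, Mac_Dex, differed from that of CD36 and CD209 in having the Dex group above the vehicle group in each state. Macrophages exceeded monocytes at least 8.85-fold with vehicle and 16.6-fold with Dex.

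MARCO, a scavenger receptor that binds unopsonized particles and bacteria, stayed close to the floor. It was read at 25.2, 14.6 and 10.5 units in Mono_Vehicle, 22.5, 13.9 and 20.4 in Mono_Dex, 43.2, 53.4 and 58.7 in Mac_Vehicle, and 48.3 and 72.6 in Mac_Dex. The macrophage samples were all above the monocyte samples, at least 2.59-fold in means with vehicle and at least 3.02-fold with Dex. MARCO too was tested because of its macrophage values, so its calls between the states are not independent of the filter. With quantile normalization, which lowers all macrophage values, the calls ended at log2 changes of 0.49 and 0.71 (adjusted p = 0.138 and 0.0603).

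CLEC5A was the tested receptor without a called difference between states as deposited. It lay at 136, 141 and 135 units in Mono_Vehicle, 145, 143 and 132 in Mono_Dex, 171, 159 and 135 in Mac_Vehicle, and 157 and 150.04 in Mac_Dex. The vehicle groups overlapped, and macrophages were 0.17 higher on the log2 scale (95% interval -0.09 to 0.42, adjusted p = 0.200 in limma). With Dex the groups did not overlap, but the difference of 0.13 (-0.15 to 0.42) was not called (adjusted p = 0.377). Relative to the median tested gene, CLEC5A was 0.55 lower in macrophages with vehicle and 0.62 lower with Dex. Centring samples on their medians accordingly turned it to -0.75 and -0.70, and quantile normalization to -0.78 and -0.81, all called lower in macrophages (adjusted p from 1.6e-05 to 1.77e-04 in limma), while centring on housekeeping genes gave -0.15 and -0.22, not called. The direction for CLEC5A between the states is therefore set by the scaling.

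**Figure D2:**
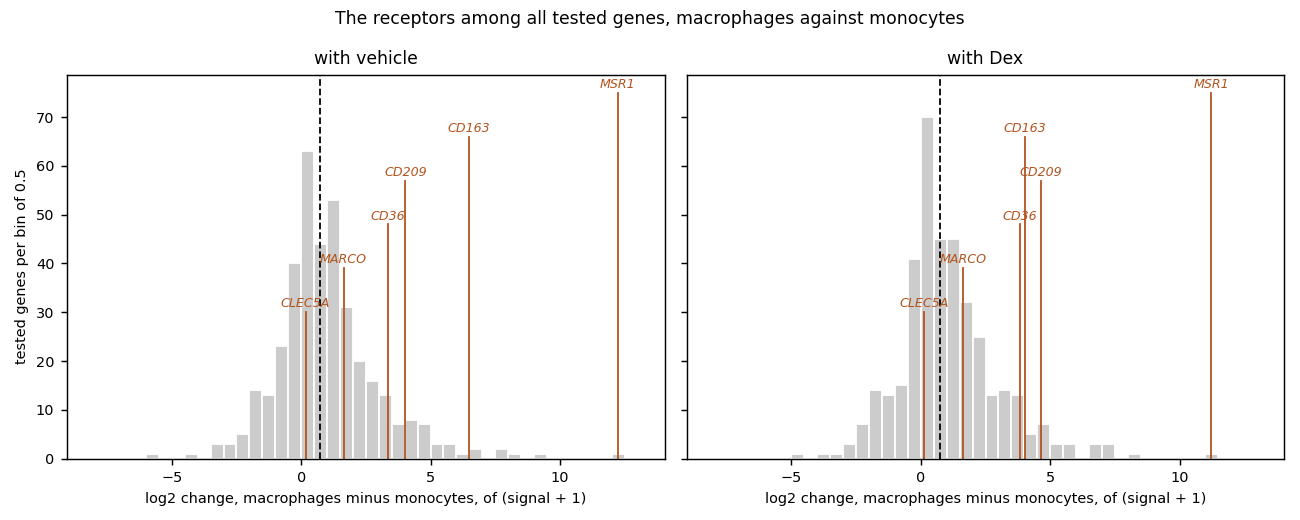
Histograms of the log2 change from monocytes to macrophages of log2(signal + 1) over the 379 tested genes, with vehicle (left) and with Dex (right); the dashed line is the median of all tested genes and orange lines are the 6 tested receptors, whose heights carry no value. MSR1 stands at the far right at 12.24 and 11.21, and CLEC5A lies left of the median at 0.17 and 0.13.

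The 4 receptors under the floor gave no difference to test. MRC1 was at 1 unit in all 6 monocyte samples and at 1.21 to 2.71 in macrophages. CLEC4A ranged from 1 to 6.5 units over the 11 samples and CLEC4E from 1 to 10.3. CLEC7A ranged from 1 to 14.6 units in monocytes, from 5.58 to 16.4 in Mac_Vehicle, and lay at 1.47 and 25.5 in Mac_Dex, the last being the only value of these 4 genes above the floor. In that sample the highest negative control, multiplied by the sample's lowest endogenous value of 1.52, came to 17.9 units. CLEC6A (dectin-2), which is no member, also stayed at 3.26 units or less. Low signal here means that the transcript was not detectable above background with these probes, not that it was absent.

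Dex raised CD163 in both states, lowered CD36 and CD209 in monocytes, and left MARCO and CLEC5A without a called change. In monocytes, 1 of the 6 tested receptors was called higher and 2 lower, where 39.1% of all tested genes were called, 16.9% higher and 22.2% lower. In macrophages 1 was called higher and 1 lower, where 47.5% of tested genes were called, 22.4% higher and 25.1% lower. The macrophage count of 2 became 4 with a pseudocount of 10 or 20, with quantile normalization, with values under 20 set to 20 or without Mono_Dex replicate 3, and 1 after centring on sample medians or without Mac_Dex replicate 1. The groups did not overlap for 3 of the 6 receptors in monocytes, against 54.6% of all tested genes, and for 4 of 6 in macrophages, against 58.6%. These shares are near the background.

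The rise of CD163 in monocytes went from 1 unit in each vehicle sample to 39.3 ± 2.87 units (SD, n = 3), at least 1.96-fold. In limma its log2 change was 4.33 (SE 0.19, adjusted p = 3.12e-10), a size that rests on the pseudocount because the vehicle group is at the lowest value. In macrophages both groups were measured, and CD163 rose 3.69-fold. Its mean was 177 ± 23.4 units with vehicle (SD, n = 3) and 653 ± 79.3 with Dex (SD, n = 2; log2 change 1.88, SE 0.22, adjusted p = 6.08e-06). In macrophages its log2 change exceeded that of 94.7% of the tested genes. CD163 stayed called higher in both states under every setting tried.

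CD36 fell 1.57-fold in monocytes, from 925 ± 21.5 to 591 ± 14.0 units (SD, n = 3 each), with a log2 change of -0.65 (SE 0.05, adjusted p = 8.1e-08 in limma), and this held under every setting tried. In macrophages the fall was 1.14-fold, from 9496 ± 458 (n = 3) to 8345 ± 379 units (n = 2), with a log2 change of -0.19 (SE 0.05, adjusted p = 0.00934). That small fall was not called when the fit held only the macrophage samples (adjusted p = 0.0743) or without Mac_Dex replicate 1 (-0.14, adjusted p = 0.117), and it turned to 0.04 after centring samples on their medians.

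CD209 fell in monocytes from 31.1 ± 7.19 to 12.4 ± 6.24 units (SD, n = 3 each), at least 1.56-fold (log2 change -1.38, SE 0.32, adjusted p = 0.00317 in limma). The 3 Dex samples were all under the floor and the 3 vehicle samples above it. In macrophages it went from 517 ± 65.6 (n = 3) to 301 ± 3.61 units (n = 2), a ratio of 1.72, and the groups did not overlap. The log2 change of -0.77 had an SE of 0.36 and was not called (adjusted p = 0.0941).

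MSR1 showed the same pattern in macrophages. It went from 9677 ± 459 (n = 3) to 6110 ± 50.3 units (n = 2), a ratio of 1.58 with groups that did not overlap, and its log2 change of -0.66 (SE 0.27) was not called (adjusted p = 0.0550 in limma). The standard errors of MSR1 and CD209 in macrophages take in the spread of the monocyte samples, because 1 variance is fitted per gene: in monocytes the 1 Mono_Dex sample at 3.26 units for MSR1, and the 1 at 5.17 units for CD209, lie under the floor. Fitted on the macrophage samples alone, both changes were unaltered in size and were called lower (MSR1 SE 0.07, adjusted p = 8.47e-05; CD209 SE 0.13, adjusted p = 0.00143). Without Mono_Dex replicate 6 the adjusted p of MSR1 was 8.45e-04, and without Mono_Dex replicate 3 that of CD209 was 0.00531. With a pseudocount of 10 or 20 both were called lower as well (adjusted p between 7.32e-06 and 0.00918). After centring samples on their medians neither was called.

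MARCO and CLEC5A did not pass the test for Dex in either state. MARCO had both monocyte means under the floor, so its response there was not measured, and in macrophages its log2 change was 0.20 (95% interval -0.57 to 0.98). CLEC5A had 0.03 (-0.23 to 0.29) in monocytes and -0.01 (-0.29 to 0.28) in macrophages, so its interval reached from 0.817-fold to 1.21-fold in macrophages. MSR1 was at the floor in monocytes, and its log2 change there, 0.36, comes from a single sample.

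**Figure D3:**
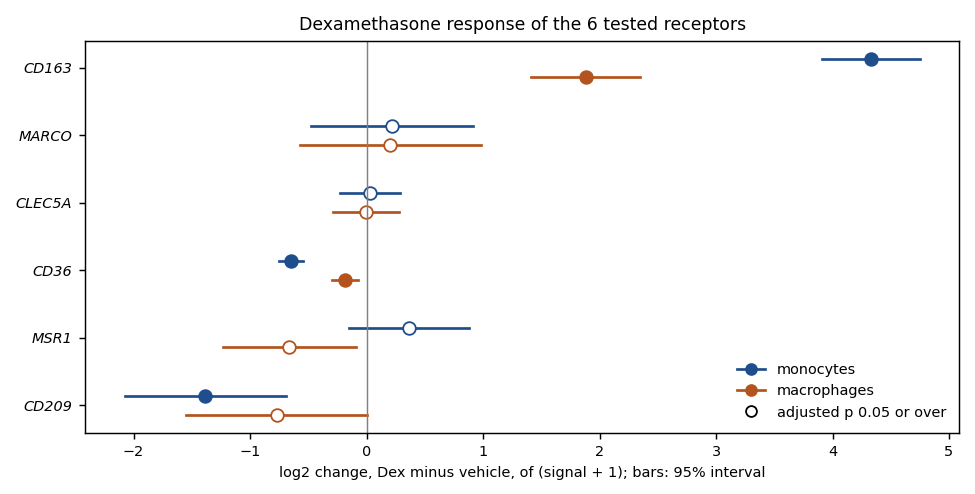
Log2 change with Dex of log2(signal + 1) for the 6 tested receptors in monocytes (blue) and macrophages (orange), with 95% intervals from limma; filled points are called at an adjusted p under 0.05. CD163 is above 0 in both states, CD36 and CD209 lie below 0 in both, and the monocyte values of CD163, CD209, MSR1 and MARCO depend on the pseudocount because at least 1 group mean lies under the floor.

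Whether the Dex response differed between the states was tested as the interaction term, macrophage response minus monocyte response. Of the 6 tested receptors 3 were called, where 25.9% of tested genes were. Of these 3, CD36 alone had all 4 groups above the floor. It fell less in macrophages, by a difference of 0.46 (SE 0.07, adjusted p = 2.37e-04 in limma), and this was called under every setting in which it was fitted. For CD163 the difference was -2.45 (SE 0.29, adjusted p = 2.28e-05) with a pseudocount of 1, -0.33 with 10 (adjusted p = 0.285), 0.28 with 20 (adjusted p = 0.287) and 0.92 when values under 20 were set to 20 (adjusted p = 0.00239). Its sign is not measured, because Mono_Vehicle lies at the lowest value of the table. For MSR1 the difference of -1.03 (adjusted p = 0.0493) has no meaning as a comparison of responses, since both monocyte groups were at the floor. The same holds for MARCO, with both monocyte means under the floor. CLEC5A, also above the floor in all 4 groups, was not called (-0.04, 95% interval -0.42 to 0.35). Nor was CD209 (0.61, -0.43 to 1.65), whose Mono_Dex mean was under the floor.

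**Figure D4:**
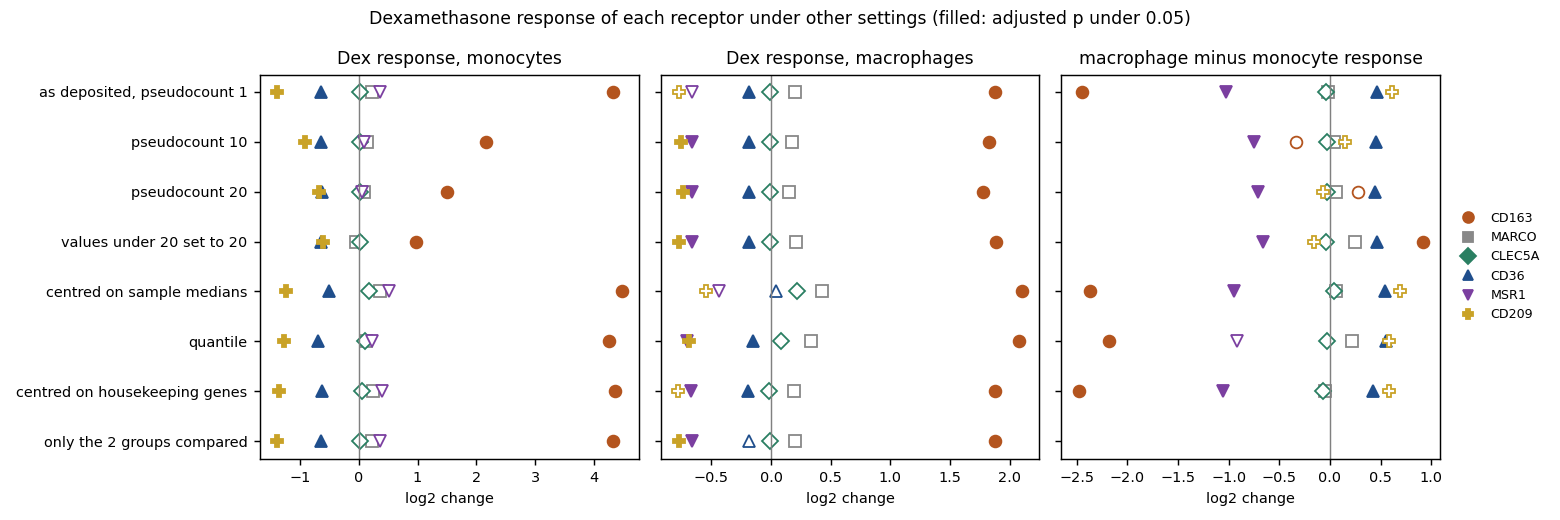
Log2 change with Dex of the 6 tested receptors in monocytes (left) and macrophages (middle), and the difference of both responses (right), under 8 settings of the pseudocount, the floor, the scaling and the samples fitted; filled symbols are called at an adjusted p under 0.05. CD36 keeps a called positive difference, between 0.43 and 0.55, in each row where it was fitted, while CD163 moves from -2.45 to 0.92.

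Promoter sequence is shown for 3 tested receptors with a single start in the RefSeq promoter table (GRCh38.p14), chosen as 1 that rose with Dex (CD163), 1 that fell in monocytes (CD209) and 1 without a called change (CLEC5A). Each is the 250 bases before the start, 5′ to 3′ on the gene's strand, and all 3 genes lie on the minus strand: CD163 at chr12:7503778-7504027, CD209 at chr19:7747535-7747784 and CLEC5A at chr7:141946975-141947224. Capitals mark GAGGAA or its reverse complement TTCCTC, the core bound by the myeloid factor PU.1.
CD163: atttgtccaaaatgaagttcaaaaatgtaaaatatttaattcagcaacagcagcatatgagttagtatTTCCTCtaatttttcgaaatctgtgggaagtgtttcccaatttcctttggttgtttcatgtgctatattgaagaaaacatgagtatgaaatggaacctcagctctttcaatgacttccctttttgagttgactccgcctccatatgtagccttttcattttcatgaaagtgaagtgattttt
CD209: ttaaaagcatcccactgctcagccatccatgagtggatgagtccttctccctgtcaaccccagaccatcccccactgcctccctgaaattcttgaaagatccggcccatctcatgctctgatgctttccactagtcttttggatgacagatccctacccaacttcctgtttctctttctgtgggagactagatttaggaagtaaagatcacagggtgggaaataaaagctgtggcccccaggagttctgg
CLEC5A: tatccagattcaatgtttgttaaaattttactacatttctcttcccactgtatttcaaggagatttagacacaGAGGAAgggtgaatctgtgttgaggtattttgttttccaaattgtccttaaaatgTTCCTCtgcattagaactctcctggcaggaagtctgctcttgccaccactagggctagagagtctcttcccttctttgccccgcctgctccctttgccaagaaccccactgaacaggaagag

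The PU.1 core was found on either strand once in CD163, at 182 bases before the start, and at 177 and 122 bases before the start of CLEC5A. It was not found in the CD209 window. Of 35116 windows of the same length in the table, 23.6% held it. The glucocorticoid receptor hexamer AGAACA, searched on both strands, was in none of these 3 windows and in 12.4% of all windows. Of the 10 receptors 6 had an entry in the table. CD36 had 6 starts, some with overlapping windows, of which 3 held the PU.1 core and 2 the hexamer, CLEC4E had both, and MARCO had neither. These matches describe letters in a window only.

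Genes that act with these receptors were described from lists of the adaptors, partners and upstream factors. Of 21 tested C-type lectin signalling genes, 3 rose and 1 fell with Dex in monocytes and 7 rose and 4 fell in macrophages (median log2 change -0.04 and 0.09, beside -0.03 and -0.03 over all tested genes). After centring on sample medians 6 rose and 1 fell in monocytes and 13 rose and 4 fell in macrophages. LCP2, an adaptor of immunoreceptor signalling, rose in both states (1424 to 2343 units and 2960 to 4482 units), and the inflammasome sensor NLRP3 fell in monocytes (624 to 385 units) and rose in macrophages (950.02 to 1908 units). MALT1, which cleaves and scaffolds downstream of CARD9 and BCL10, fell from 653 to 447 units in macrophages. FCER1G, the ITAM adaptor that pairs with CLEC4E, was higher in macrophages than in monocytes with vehicle (9025 against 823 units), while CLEC4E itself was under the floor. Between the states with vehicle, 16 of the 21 genes were called higher in macrophages and 2 lower as deposited, but 3 higher and 16 lower after centring on sample medians, so the direction of this list is set by the scaling. The calls given for LCP2, NLRP3, MALT1 and FCER1G held with each of the 4 scalings.

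Of 15 tested partners of CD36 and MSR1 and other uptake receptors, 3 rose and 5 fell with Dex in monocytes. In macrophages 2 rose and 5 fell. The median log2 change was -0.16 and -0.17, beside -0.03 and -0.03 over all tested genes. With quantile normalization 2 rose and 7 fell in monocytes and 1 rose and 9 fell in macrophages, and after centring on sample medians 3 rose and 4 fell in each state. TLR2, which signals together with CD36, rose in monocytes (874 to 1452 units) and in macrophages (2479 to 5542 units). CD14, a lipopolysaccharide co-receptor, fell from 53.5 to 18.3 units and from 188 to 43.9. TLR4, the lipopolysaccharide receptor, fell from 573 to 246 units in macrophages. Between the states with vehicle 13 of the 15 were higher in macrophages and 2 lower, where 65.2% of all tested genes were called higher and 19.5% lower. LY96 and FCGR3A/B entered the fit through the macrophage groups only, with monocyte means of 2.47 units or less. Their calls as higher were therefore built into the filter. The tetraspanin CD9, a membrane partner of CD36, was 23.6-fold higher, from 89.4 to 2112 units, and the Fc receptor FCGR2A was 2.74-fold lower.

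Of 11 tested genes of the interleukin 4, interleukin 10 and PPARG axis, 4 rose and 3 fell with Dex in monocytes. In macrophages 3 rose and 3 fell. The median log2 change was 0.01 and -0.15, beside -0.03 and -0.03 over all tested genes. PPARG, the lipid-sensing nuclear receptor that is known to drive CD36 transcription, rose in monocytes (77.4 to 120 units) and in macrophages (578 to 819.5 units). CD36 fell in monocytes (925 to 591 units) and, less and not under every setting, in macrophages (9496 to 8345 units). A link between PPARG and CD36 was not tested. IL13RA1, a receptor chain for interleukins 4 and 13, rose 2.09-fold and 1.80-fold, and IL1RN fell from 621 to 180 units in macrophages. PPARG was 7.47-fold higher in macrophages than in monocytes with vehicle. There 9 of the 11 genes were called higher and 2 lower as deposited, where 65.2% of all tested genes were called higher and 19.5% lower. IRF4, called higher, passed the filter through Mac_Vehicle alone, and CCL22, called lower, through the monocyte groups alone. These calls are not independent of the filter. After centring on sample medians 6 of the 11 were higher and 4 lower. Of the 28 other lectins and lectin-like receptors listed, 17 were in the table and 2 were tested. Galectin 3 (LGALS3) was 4.58-fold higher in macrophages with vehicle, and CD22, a sialic acid-binding lectin, was at least 45.3-fold higher. CD22 was tested because of its macrophage values, so its call between the states adds nothing to this bound. In macrophages it fell 2.14-fold with Dex, from 906 ± 81.0 (SD, n = 3) to 424 ± 36.0 units (n = 2). The adjusted p was 0.0341 in limma, but 0.0569 after centring on sample medians and 0.0595 with quantile normalization. Its SE of 0.39 takes in the spread of the monocyte samples, whose means of 1.98 and 1.54 units lie under the floor. Of 8 tested glucocorticoid-induced genes, a list that holds CD163, 7 rose in monocytes and 8 in macrophages. Among all tested genes 16.9% and 22.4% were called higher, and the list was chosen with earlier results of these data known. Of 16 housekeeping genes 1 rose and 1 fell in monocytes and 3 rose and 1 fell in macrophages as deposited. Centring on sample medians gave 4 higher and 1 lower housekeeping genes in monocytes and 9 and 1 in macrophages, and quantile normalization gave 2 and 6 in monocytes and 3 and 5 in macrophages.

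The genes whose log2 signal followed each receptor most closely over the 11 samples were found by Pearson correlation, as a description. For MSR1 they were LY96 (r = 0.999), FCER1G (0.998) and ITGB2 (0.998), for CD36 CCL5, CD44 and ITGA6 (0.998 each), and for CD209 ABCB1 (0.994), IL2RG (0.987) and IL10RA (0.986). For CD163 they were LCP2, STAT3 and IFNGR1 (0.980, 0.980 and 0.977). MARCO followed STAT5A, CRADD and ITGAE (0.941, 0.937 and 0.931), and CLEC5A followed CHUK, GAPDH and POLR2A (0.857, 0.825 and 0.808). These values were taken over all samples together, which fall into 2 cell states that also differ in total signal. How far they reflect the states, the Dex response or both was not tested. Among the receptors themselves r ran from 0.537 (MARCO and CLEC5A) to 0.987 (MSR1 and CD36), and CD163 with CD209, which moved opposite ways with Dex in monocytes, had 0.649.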

How the data were processed

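NanoString nCounter data of 11 THP-1 samples were used, 50 ng of total RNA each. The deposited values are a normalized linear signal per probe; per the labels' design text the authors used nSolver for quality control and left out 1 of 12 samples. For the nSolver version, the reference genes, the background rule and any cartridge or lane, nothing is given in the sources used here, and whole counts could not be recovered, so no count test was run. The table held 608 probes (594 endogenous, 8 negative and 6 positive controls). Groups came from sample titles.

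From the deposited signal, log2(value + 1) was fitted in R 4.3.3 by limma, version 3.58.1 (lmFit, eBayes with a mean-variance trend, all 4 groups in 1 fit, no covariate) over the 379 probes with a highest group mean of at least 20 units, with Benjamini-Hochberg adjustment per comparison. The fit was run on simulated data with the same mean and spread per gene in all groups, and with shifts added to some genes in Mac_Dex only. That run does not cover genes whose spread differs between groups, such as MSR1 and CD209. Named genes were the 10 receptors, FKBP5, the 3 genes most correlated with each tested receptor, and called genes with the largest change in each list, up to 3 per direction. The members and lists were chosen with earlier results of these data known. Alternatives changed the pseudocount, the filter, the scaling, the trend, the samples fitted, the replicate block and each replicate; setting values under 20 to 20 was added after seeing the data. Replicate numbers are shared by at most 2 samples of any compared pair of groups, so no pairing was assumed. The result of 1 further list of cell markers is not reported here.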

Additional observations from a re-analysis of the deposited data

Results flagged for a closer look

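The interaction term in limma (macrophage minus monocyte Dex response, log2) was past the threshold for 3 receptors. Among these 3, both responses were measured above the floor for CD36 alone. CD36 differed by 0.46 (SE 0.07, adjusted p = 2.37e-04), with all 11 samples above the floor. For CD163 the term was -2.45 (SE 0.29, adjusted p = 2.28e-05) with Mono_Vehicle at the lowest value of the table, and it was 0.92 with values under 20 set to 20, so its sign was not measured. For MSR1 it was -1.03 (SE 0.36, adjusted p = 0.0493) with all 6 monocyte samples at 3.26 units or less, so no difference of responses was measured.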

How the results depend on the processing

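Of 652 values of single genes under alternatives, 582 kept direction and side of the threshold. The count of receptors called with Dex in macrophages moved most, from 2 to 4 with a pseudocount of 10 or 20, with quantile normalization or with values under 20 set to 20 (chosen after seeing the data), and to 1 after centring on sample medians. It was 1 to 4 when each replicate was left out in turn (1 without Mac_Dex replicate 1, 4 without Mono_Dex replicate 3). Leaving out each replicate gave 130 to 155 called genes with Dex in monocytes, 148 to 193 in macrophages, 309 to 324 and 284 to 307 between the states with vehicle and with Dex, and 75 to 99 for the difference of responses, and 2 to 3 receptors called in the last.

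Reversed values were these. Centring on sample medians gave, for Dex in macrophages, 0.038 for CD36 and 0.22 for CLEC5A, and for the difference of responses 0.059 for MARCO and 0.043 for CLEC5A. Between the states it gave -0.75 and -0.70 for CLEC5A with vehicle and with Dex, quantile normalization -0.78 and -0.81, and housekeeping genes -0.15 and -0.22. Quantile normalization also gave 0.085 for CLEC5A with Dex in macrophages and 0.22 for the difference of MARCO. For the difference of responses, a pseudocount of 10 gave 0.040 for MARCO, and one of 20 gave 0.059 for MARCO, 0.28 for CD163 and -0.067 for CD209. Setting values under 20 to 20 gave 0.92 for CD163, 0.25 for MARCO and -0.16 for CD209, and -0.045 for MARCO with Dex in monocytes. Leaving out each replicate moved MARCO between -0.047 and 0.54 in monocytes, -0.086 and 0.49 in macrophages and -0.34 and 0.27 in the difference, and CLEC5A between -0.10 and 0.067 in macrophages and -0.13 and 0.037 in the difference. Apart from values at the floor, which the pseudocount moves by construction, the cause was not tested. Of the calls, the MSR1 difference was lost without any 1 replicate of Mono_Vehicle, Mac_Vehicle or Mac_Dex (adjusted p from 0.0664 to 0.123 in limma).

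The replicate numbers were not taken as pairs, and correlations of the deviations from group means do not settle whether they mark pairs. Same-numbered vehicle and Dex samples correlated at 0.23 and 0.18 in monocytes, where differently numbered ones ran from -0.28 to 0.07. In macrophages the same-numbered values were -0.28 and -0.41. With 2 Mac_Dex samples the deviations of 1 mirror those of the other, so these macrophage values cannot decide it. With the number as a replicate block, called genes for the difference of responses went from 98 to 49, CLEC5A turned to 0.029 with Dex in macrophages and to 0.016 in the difference, and the receptors called went from 5 to 4 between the states with Dex (MARCO, adjusted p = 0.0975 in limma) and from 3 to 2 for the difference of responses (MSR1 -1.22, adjusted p = 0.0882). Their number stayed at 3 and 2 with Dex in monocytes and macrophages and at 5 between the states with vehicle, but in macrophages CD36 was lost (-0.17, adjusted p = 0.102) and CD209 was gained (-0.85, adjusted p = 0.0288). Signals under 20 units could not be told from background, which limits MSR1, CD163, CD209 and MARCO in monocytes.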
